A study of Mus musculus with 2 samples.

Results

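Integrins are the cell surface receptors, each built of an alpha and a beta chain, by which epithelial cells hold on to the matrix beneath them. In the gut that matrix is the basement membrane, a sheet in which laminin trimers and a collagen IV network are joined by nidogens and by the proteoglycans perlecan and agrin. Intestinal epithelium is known to bind laminins through integrin alpha-6/beta-4, which sits in hemidesmosomes, and through alpha-3/beta-1 and alpha-6/beta-1, while much of the collagen of the gut wall is made by the mesenchyme below it.

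The genes described here are the integrin chains (Itga and Itgb), laminin chains (Lama, Lamb and Lamc), collagen chains (Col) and nidogens in the deposited tables, with Hspg2 (perlecan), Agrn (agrin) and Fn1 (fibronectin). They were chosen by symbol, with earlier results of these data known. They number 80 of 18944 genes: 26 integrin chains, 9 laminin chains, 40 collagen chains and 5 other matrix proteins. RNA sequencing was done on cultures that the labels call intestinal stem cells, from mice aged 2 months. One group, called WT here, had the genotype Lgr5GFP-CreERT2 WT, and the other, called KO, had Lgr5GFP-CreERT2 Stat6 KO. Both carry the Lgr5 allele that expresses GFP with a Cre recombinase switched on by tamoxifen. STAT6 is the transcription factor activated by IL-4 and IL-13, and the design asks how expression differs without it. Both cultures received epidermal growth factor (EGF), R-spondin 1, N-acetylcysteine, the N2 and B27 supplements and Y27632, a kinase inhibitor. Lentiviral CRISPR/Cas with Stat6 guide RNAs and screening for deficient cells stand in the protocol text of both samples, and the sources used here do not say whether the KO cells are 1 clone or whether the cells lay in a matrix gel.

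There was 1 library per genotype, so no difference below has a replicate check, and none is tested. Values are FPKM (fragments per kilobase of transcript, normalised to the mapped reads of the library), a level per transcript length that can be roughly compared between genes. The steps between the smallest values corresponded to about 20100000 reads in WT and 20500000 in KO, or to a whole multiple of these. Read numbers below use these depths, which may be too low, and the longest coding transcript, which may be too long. The log2 ratio is log2((KO FPKM + 1)/(WT FPKM + 1)), which understates the change of low genes, and genes that reached 1 FPKM in either library are called measured. Stat6 was at 41.3 FPKM in the WT library and 44.2 FPKM in KO, which does not check the genotype label, since a small CRISPR lesion need not lower a transcript. The 8 epithelial markers summed to 9228 FPKM in WT and 6780 FPKM in KO, with log2 ratios from -0.89 for Krt18 to 0.57 for Vil1. The 5 stem cell markers summed to 49.5 and 44.4 FPKM, with log2 ratios from -0.71 for Ascl2 to 0.19 for Smoc2. Lgr5 was at 1.79 and 1.88 FPKM and Axin2 at 21.6 and 20.6 FPKM. The summed level of 6 enterocyte markers was 2968 FPKM in the WT library and 10209 FPKM in KO. The part of this difference in cell make-up in the results below was not tested, and in bulk RNA fewer cells of a type and less RNA per cell cannot be told apart.

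Of the 80 genes, 30 were measured: 15 integrin chains, 8 laminin chains, 3 collagen chains and 4 other matrix proteins. The other 50 lay below 1 FPKM in both libraries. Of the 30, 25 reached 1 FPKM in both libraries, 5 in WT alone (Itga4, Itgb2, Itgb7, Lama4 and Col18a1) and 0 in KO alone, and those 5 had to read lower in KO. Lama3, the laminin alpha-3 chain, and Itgb6, the integrin beta-6 chain, were at least 2-fold lower in KO, which is 2 of 30 where 2.18% of all 12079 measured genes were. None of the 30 was at least 2-fold higher, where 2.44% of all measured genes were. At a 1.5-fold limit, 9 of 30 were lower, where 11.4% of all measured genes were, and 0 were higher, where 5.7% were. Those added at that limit included Col18a1, Col4a1, Lama5, Itga5, Col4a2 and Lamb2. The median log2 ratio of the 30 was -0.36, that of the 25 at 1 FPKM in both libraries -0.33 and that of all measured genes -0.18.

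On the deposited scale, 69.6% of all measured genes had a log2 ratio below 0. Whether this comes from the scaling or from the RNA make-up was not tested. Among the 30 genes 28 did, and the exceptions were Itgam and Nid2. A scaling factor from the trimmed mean of log ratios (TMM) shifted the median of all measured genes by 0.16, to -0.02. With it 23 of the 30 were below 0, where 52% of all measured genes were, and the median of the 30 was -0.22. The 5 genes whose sign turned with the TMM factor were Itga3, Itgb1, Itgb5, Lamb3 and Nid1, so no direction is given for these. By the plain FPKM, KO was at 50 percent of WT or less for 8 of the 30, where 5.75% of all measured genes were. Of these, Col18a1, Itgb2 and Itgb7 reached 1 FPKM in WT alone. Among the 25 genes at 1 FPKM in both libraries, 5 were at 50 percent or less, where 3.13% of the 11225 such genes were: Lama3, Lamb2, Col4a1, Col4a2 and Itgb6.

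**Figure D1:**
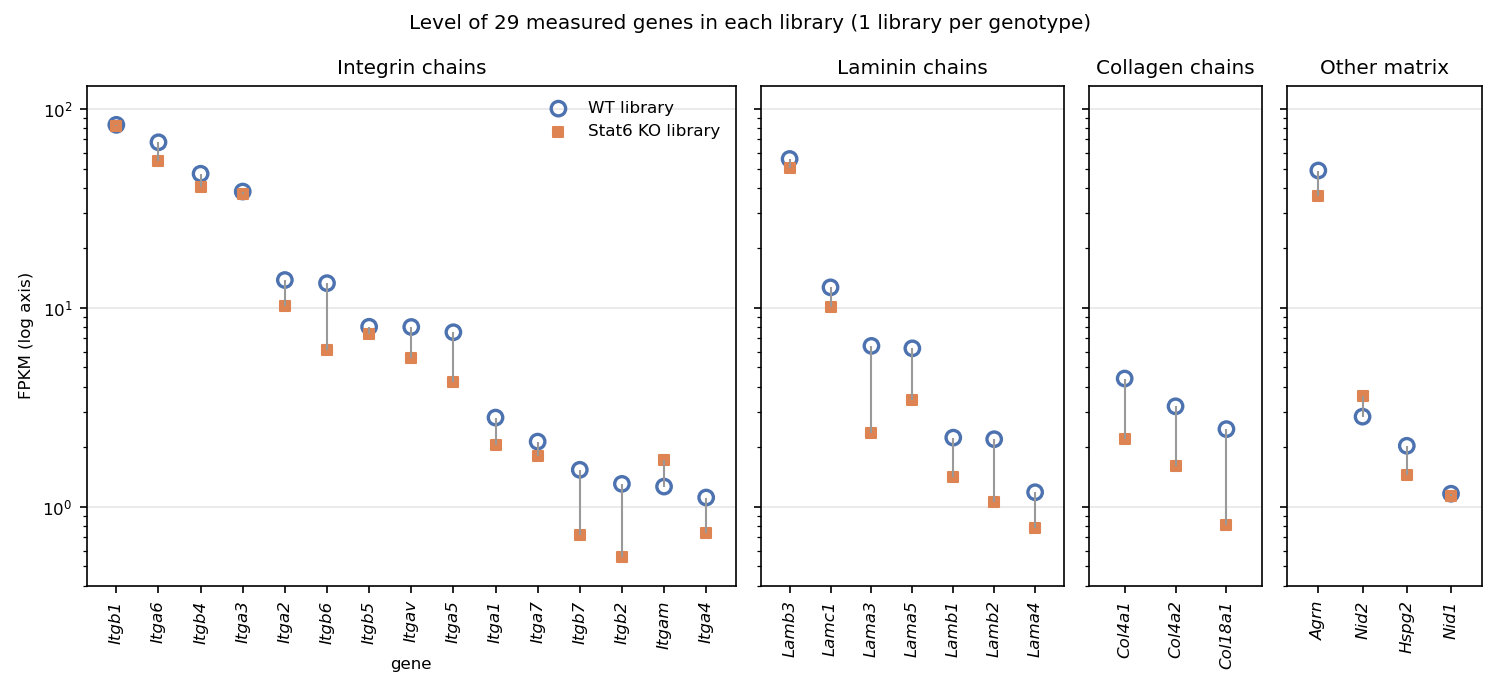
Level of 29 of the 30 measured genes in FPKM on a log axis, with an open circle for the WT library and a square for the KO library, 1 library each, joined by a line. Itgb1, Itga6, Lamb3, Itgb4, Agrn and Itga3 stand above the other genes shown in both libraries, and the longest downward lines belong to low or middle genes such as Lama3, Itgb6 and Col18a1.

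Promoters of the 2 integrin chains Itga3 and Itgb6 are shown because the first holds the one STAT6 motif found among the measured genes and the second belongs to the integrin with the lowest ratio. In KO, Itga3 was at 97.3% of its WT level and Itgb6 at 46.2%. The table lists 2 starts for each of these genes, and the one farthest upstream is shown. Each sequence holds the 250 bases before that start, 5′ to 3′ on the gene's own strand, from the RefSeq promoter table of build GRCm38.p6. Capitals mark a match to the STAT6 motif, TTC and GAA with 4 bases of any kind between them, a spacing that STAT6 is known to prefer. It reads the same on both strands. This Itga3 promoter, at chr11:95076715-95076964 on the minus strand, has 1 match, whose first base lies at -93 relative to the start. This Itgb6 promoter, at chr2:60722604-60722853 on the minus strand, has none, and neither has the promoter at the other start of either gene.
Itga3: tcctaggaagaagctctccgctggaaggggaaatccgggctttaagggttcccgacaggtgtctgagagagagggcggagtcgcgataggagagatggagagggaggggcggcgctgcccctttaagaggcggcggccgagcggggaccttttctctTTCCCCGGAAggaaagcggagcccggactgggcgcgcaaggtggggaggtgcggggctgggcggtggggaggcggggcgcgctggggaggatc
Itgb6: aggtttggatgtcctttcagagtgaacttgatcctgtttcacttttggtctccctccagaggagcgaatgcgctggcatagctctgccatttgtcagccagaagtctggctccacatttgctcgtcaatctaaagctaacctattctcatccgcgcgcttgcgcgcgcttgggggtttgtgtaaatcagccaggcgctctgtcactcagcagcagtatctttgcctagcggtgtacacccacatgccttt

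The promoter table matched 57 of the 80 genes with 64 promoters, and 21 of the 30 measured genes with 26 promoters. Lama3, Itga6 and Itgb4 were among the measured genes without a promoter there, so no motif was searched for them. The STAT6 motif was found in 1 of these 26, that of Itga3, and in 5.85% of all 32851 promoters of the table. Itgax, below the minimum level, was the other member with a match. The AP-1 motif TGANTCA was in 0 of the 26 and in 6.75% of all promoters. The TEAD motif GGAATG was in 4 of the 26, those of Col18a1, Itgb1, Lamb3 and Nid1, and in 12.6% of all promoters. The 3 motifs were searched on both strands, and a match or its absence describes letters in this window, not binding.

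Receptors for laminin were the most abundant integrins. Itgb1, the beta chain shared by most epithelial integrins, was the highest of the 80 genes at 82.9 FPKM in the WT library and 82.0 FPKM in KO. Itga6, which pairs with beta-1 or beta-4, was at 67.8 and 54.4 FPKM, a log2 ratio of -0.31. Itgb4, the hemidesmosomal beta chain with its long cytoplasmic tail, was at 47.1 and 40.2 FPKM (log2 ratio -0.22), and Itga3 at 38.3 and 37.3 FPKM (-0.04). These 4 chains stood in the same order in both libraries, and each was within 1.5-fold between them. The FPKM of Itga6 was 1.44 times that of Itgb4 in WT and 1.35 times in KO. Itga7, the laminin-binding chain best known from muscle, was at 2.12 and 1.79 FPKM.

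Partners of the hemidesmosome were measured as well. Plec, which links integrin beta-4 to keratin filaments, was at 31.5 and 31.3 FPKM, and the tetraspanin gene Cd151 at 69.6 and 61.4 FPKM. Dst, another plakin gene, was at 5.76 and 7.42 FPKM. Col17a1, the transmembrane collagen of the skin type of hemidesmosome, was at 0.02 FPKM in WT and listed at 0 in KO. Hemidesmosomes of the intestine are known to lack that collagen.

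Itgb6 was the integrin chain with the lowest log2 ratio. It pairs only with alpha-V, and the resulting epithelial receptor binds fibronectin and activates latent TGF-beta. Itgb6 was at 13.3 FPKM in the WT library and 6.13 FPKM in KO, about 1272 and 599 reads, with a log2 ratio of -1.0. The value lies just past the 2-fold limit and was -0.84 with the TMM factor. Its partner Itgav was at 7.99 and 5.56 FPKM (-0.45), and Itgb5, a competing partner of alpha-V, at 8.01 and 7.40 FPKM. In WT the level of Itgb5 was 0.604 times that of Itgb6, and in KO 1.21 times, so the order of these beta chains differed between the libraries. The other alpha-V partners were low, with Itgb3 at 0.62 and 0.16 FPKM and Itgb8 at 0.05 FPKM in WT and listed at 0 in KO.

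The fibronectin receptor chain Itga5 was at 7.52 and 4.24 FPKM, a log2 ratio of -0.70. Its ligand gene Fn1 was below the minimum level in both libraries, at 0.72 and 0.63 FPKM. Among collagen receptors, Itga2 was at 13.8 and 10.2 FPKM (-0.40) and Itga1 at 2.80 and 2.03 FPKM (-0.33). Itga10 and Itga11, the other collagen-binding chains, stayed at or below 0.46 FPKM.

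Integrins of white blood cells were near the minimum level. Itgb2, the beta chain of leukocyte integrins, was at 1.30 and 0.56 FPKM, and Itgb7, found on gut-homing lymphocytes, at 1.53 and 0.72 FPKM. Itgam, the alpha chain of the myeloid receptor Mac-1, went the other way with 1.26 FPKM in the WT library and 1.72 FPKM in KO (log2 ratio 0.27). Itgae, which marks lymphocytes lying within the epithelium, was at 0.38 and 0.26 FPKM, and Itga4 at 1.11 and 0.74 FPKM. A lower FPKM in KO was listed for 12163 of all 18944 genes. Of 10 white blood cell markers, 8 were measured and all 10 were at a lower FPKM in KO. Their sum was 48.9 FPKM in the WT library and 20.95 FPKM in KO, with Ptprc (CD45) at 1.43 and 0.57 FPKM, and its part in the values of Itgb2 and Itgb7 was not tested.

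**Figure D2:**
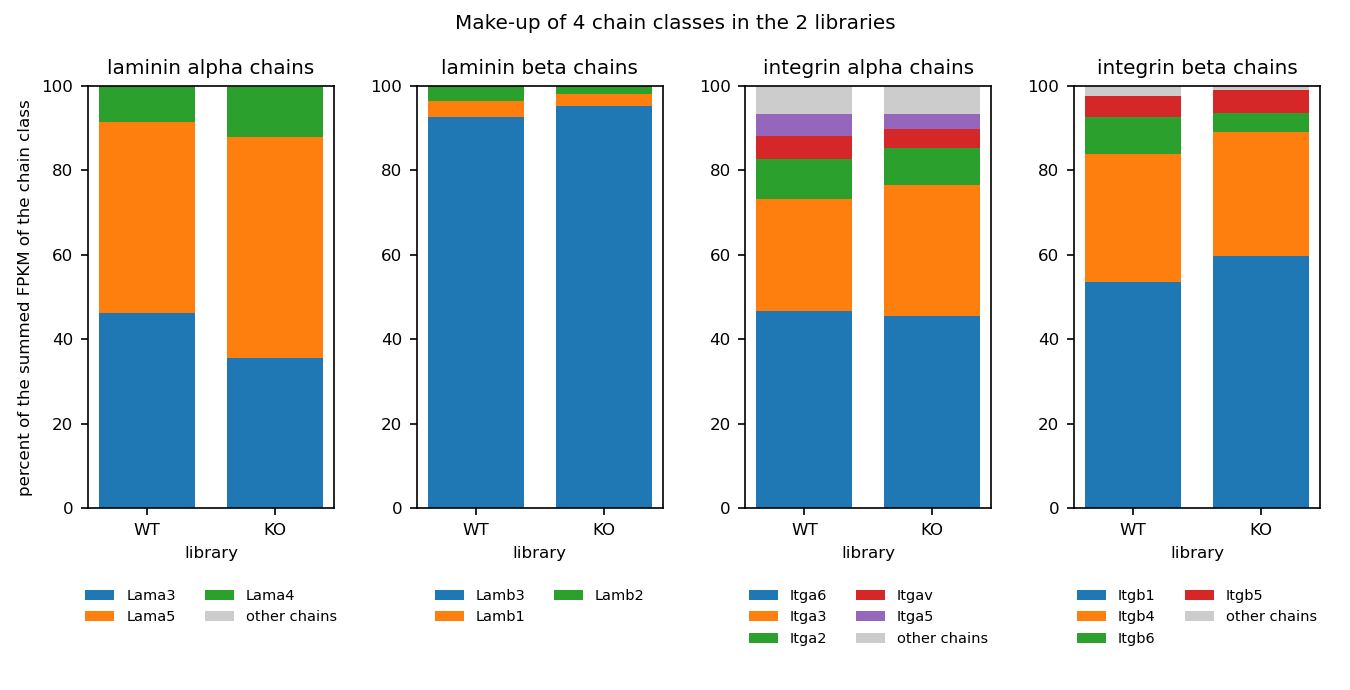
Share of each chain in the summed FPKM of the listed chains of its class, in percent, for laminin alpha (without Lama1) and beta and integrin alpha and beta chains in the WT and KO libraries. Lama3 takes 46.4% of the laminin alpha chains in WT and 35.5% in KO, and Itgb6 takes 8.57% and 4.47% of the integrin beta chains.

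The laminin chains differed from each other in their ratio, with 1 of 8 measured chains at least 2-fold lower, 4 at least 1.5-fold lower and a median log2 ratio of -0.53. Of all measured genes, 2.18% and 11.4% were lower at these limits, with a median of -0.18. Lama3 was the lowest of all 30 genes. It was at 6.42 FPKM in the WT library and 2.33 FPKM in KO, about 1356 and 502 reads, or 36.3% of the WT level, with a log2 ratio of -1.16, and -1.02 with the TMM factor. Lamb3, the beta chain of the same trimer, was at 55.9 and 50.4 FPKM (-0.15, or 0.04 with the TMM factor).

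Both chains belong to the laminin that hemidesmosomes bind, known from skin and from the villus. The alpha-3 chain was far below the beta-3 chain already in WT, where the FPKM of Lamb3 was 8.70 times that of Lama3. In KO this multiple was 21.6. Lama3 is a long gene with a long and a short transcript, and the FPKM per gene does not tell them apart. The sources used here do not give the lengths behind the deposited FPKM, so these multiples are approximate. If the short transcript is the one expressed, the read numbers given for Lama3 are too high for the depths used.

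Lama5, the alpha chain of the main adult laminin of epithelia, was at 6.24 and 3.44 FPKM (-0.71). The alpha-5 laminins contain the beta-1 or beta-2 and the gamma-1 chain. Lamb1 was at 2.22 and 1.4 FPKM (-0.42), Lamb2 at 2.18 and 1.06 FPKM (-0.63), and Lamc1 at 12.6 and 10.03 FPKM (-0.31). Lama4, an alpha chain of vessels and mesenchyme, was at 1.18 and 0.78 FPKM, and Lama2, the muscle chain, at 0.01 FPKM in both libraries. Summed over the 4 alpha chains listed, which do not include Lama1, the level was 13.9 FPKM in the WT library and 6.56 FPKM in KO, or 47.4% of WT. The sum over 3 beta chains was 87.6% of WT. Lamb3 made up 92.7% of the beta chains in WT and 95.3% in KO.

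Markers of stratified epithelium, such as skin, had low values in the KO library beside Lama3. Of 7 stratified epithelium markers 3 were measured, and their log2 ratios were -2.80 for the desmosomal cadherin Dsg3, -1.36 for Krt6a and -0.35 for Krt5. The sum of the 7 was 20.4 FPKM in the WT library and 5.48 FPKM in KO. The basal cell factor Trp63, a defining marker, was listed at 0 in the WT library and was 0.01 FPKM in KO, and Krt14 was at 0.29 and 0.13 FPKM. The AP-1 member Fosl1, which is on none of the gene lists used here, was at 16.8 and 4.07 FPKM. No other AP-1 gene is given here. The part of these genes in the Lama3 value was not tested.

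Collagens were scarce. Only Col4a1, Col4a2 and Col18a1 of the 40 chains were measured, and all 40 together summed to 17.15 FPKM in the WT library and 8.95 FPKM in KO. Col4a1 and Col4a2, the chains of the collagen IV found in every basement membrane, were at 4.4 and 3.19 FPKM in the WT library, and their KO levels were 2.19 and 1.59 FPKM. KO was at 49.8% of WT for both genes, and Col4a1 was 1.38 times Col4a2 in each library. With the pseudocount the log2 ratios were -0.76 and -0.69. These genes are known to lie head to head and to share a promoter region, and in the RefSeq table of GRCm38.p6 their first transcribed stretches overlap by 22 bases. Col4a3, Col4a4 and Col4a5, chains of specialised basement membranes, did not pass 0.03 FPKM.

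Col18a1, whose C-terminal fragment is endostatin, was at 2.45 FPKM in the WT library and 0.81 FPKM in KO, about 274 and 92.3 reads. That is 33.1% of the WT level and a log2 ratio of -0.93. It was past 2-fold with a pseudocount of 0.1, at -1.49. Col15a1, the other member of its family, was at 0.25 and 0.21 FPKM.

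**Figure D3:**
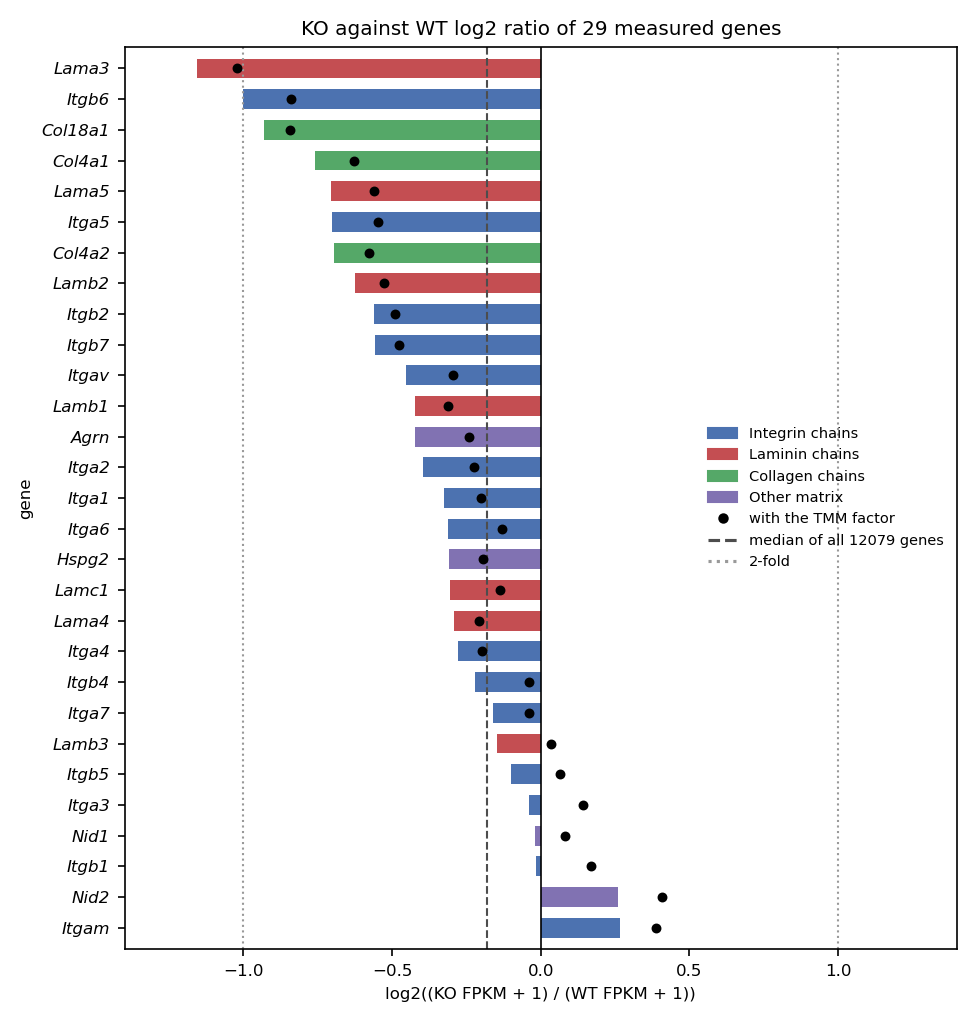
Log2 ratio of KO to WT for 29 of the 30 measured genes, ordered by value, with bars for the deposited scale coloured by class and black dots for the TMM factor. The dashed line is the median of all 12079 measured genes (-0.18) and the dotted lines mark 2-fold. Lama3 and Itgb6 reach the left dotted line, and only Lama3 does so with the TMM factor.

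Fibrillar collagens, the products of fibroblasts, were all below the minimum level. Col1a1 was at 0.71 and 0.51 FPKM, Col1a2 at 0.46 and 0.32 FPKM, and Col3a1 at 0.32 FPKM in both libraries. Col1a1 was 1.54 times Col1a2 in WT and 1.59 times in KO. The 11 fibrillar chains summed to 2.73 and 1.75 FPKM. Collagen VI, the beaded filament of connective tissue, had Col6a1 at 0.91 and 0.27 FPKM, about 74.3 and 22.5 reads, and Col6a2 at 0.38 and 0.16 FPKM. Col7a1, the anchoring fibril of skin, was at 0.24 and 0.14 FPKM. Across all 50 genes below the minimum, 35 had a lower FPKM in KO, 9 a higher one and 6 the same. Over all 18944 genes 12163 were lower, 5620 higher and 1161 the same. That set is unlike the 50, since it includes the 12079 measured genes, of which 8401 were lower. Of these 50, 22 stood for fewer than 10 reads in both libraries at the depths used here, where 1 read more or less moves the ratio.

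Endothelial markers were lower in KO as well, and markers of matrix-producing cells went both ways. The 9 fibroblast and mesenchyme markers summed to 65.1 FPKM in the WT library and 30.1 FPKM in KO, mostly through Vim at 59.8 and 25.6 FPKM. Of the 4 measured, Vim, Dcn and Thy1 had log2 ratios of -1.19, -1.0 and -0.31, and Prrx1 had 1.0. The defining receptor Pdgfra was at 0.05 FPKM in both libraries, and Twist2 was at 0.08 FPKM in WT and listed at 0 in KO. Of the 9, 6 had a lower FPKM in KO, 1 a higher one and 2 the same. The 8 endothelial markers summed to 26.6 and 13.7 FPKM, with Pecam1 at 4.24 and 1.99 FPKM. All 8 had a lower FPKM in KO, as did 12163 of all 18944 genes. Smooth muscle markers summed to 2.81 and 2.47 FPKM, and the 1 measured, Tagln, was at 1.94 and 2.04 FPKM. The part of these cell types in the collagen IV, Col18a1 and laminin values was not tested.

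**Figure D4:**
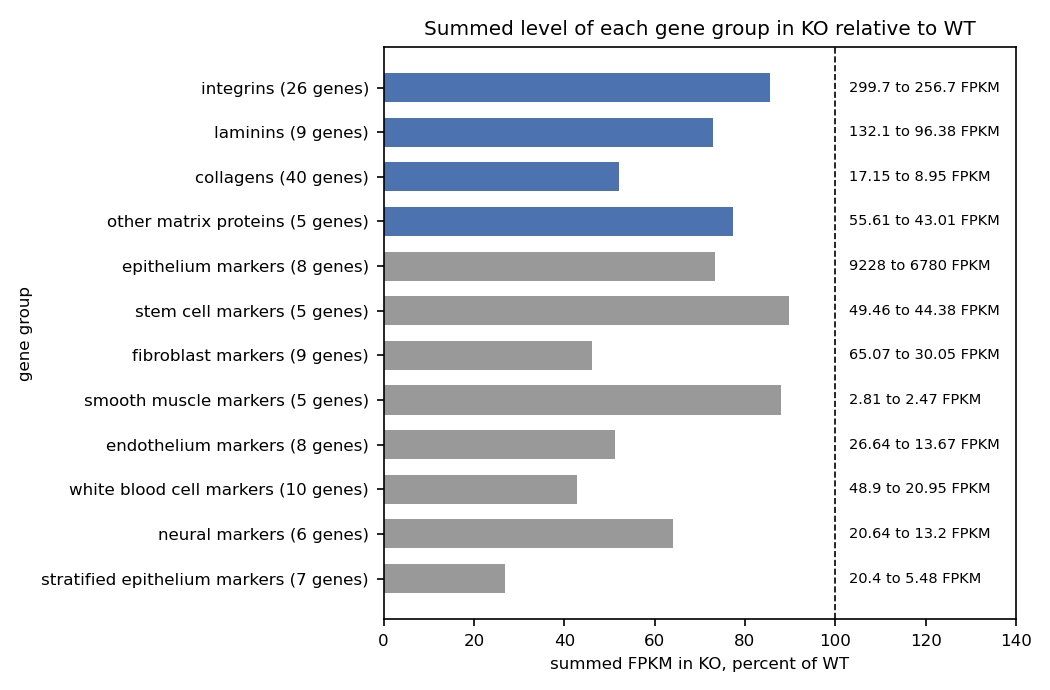
Summed FPKM in KO as a percent of the sum in WT for the 4 classes of matrix and receptor genes (blue) and for markers of epithelium, stem cells and other cell types (grey), with both sums in FPKM at the right. Integrins stand at 85.6%, laminins at 72.9% and collagens at 52.2%. The grey bars run from 26.9% for stratified epithelium to 89.7% for stem cells. White blood cells are at 42.8%, fibroblasts (mostly Vim) at 46.2%, endothelium at 51.3% and epithelium at 73.5%. The enterocyte markers, whose sum in KO was 343.9% of WT, are not drawn.

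The proteins that tie the basement membrane together were all within 1.5-fold. Agrn, a heparan sulphate proteoglycan, was the fourth most abundant of the 80 genes in WT, at 48.9 FPKM, and was at 36.2 FPKM in KO (log2 ratio -0.42). Hspg2, the perlecan core protein, was at 2.02 and 1.44 FPKM (-0.31). Nid1, which links laminin to collagen IV, was at 1.16 and 1.13 FPKM. Nid2, its relative, was at 2.83 and 3.59 FPKM (0.26), or 0.41 with the TMM factor.

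The cytoplasmic machinery of integrin adhesion had 27 of 32 listed genes measured, with 1 at least 2-fold lower, 0 higher and a median log2 ratio of -0.21. Over all measured genes 2.18% were lower, 2.44% were higher and the median was -0.18. With the TMM factor the counts were 0 lower and 1 higher, since Flna was at -0.99 and Nedd9 at 1.06. The lower gene was the actin crosslinker Flna, at 38.4 and 16.6 FPKM (-1.16). The crosslinker Actn1 was at 92.6 and 50.2 FPKM (-0.87), whereas its relative Actn4 was at 278 and 356 FPKM (0.35). Fermt1, the epithelial kindlin that activates integrins, was at 52.8 and 29.2 FPKM (-0.83), and the adaptor Nedd9 was highest, at 29.8 and 55.6 FPKM (0.87). Talin 1 (Tln1), the other integrin activator, had a log2 ratio of 0.13, and the kinase Ptk2 (FAK) -0.18.

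Among other matrix receptors and hemidesmosome partners, 15 of 17 were measured, with 2 at least 2-fold lower, 0 higher and a median of -0.30, or -0.12 with the TMM factor, beside 2.18% lower and 2.44% higher over all measured genes. The lower ones were Cd44, the hyaluronan receptor, at 85.9 and 28.8 FPKM (-1.54), and Bcam, a receptor for the laminin alpha-5 chain, at 10.3 and 4.04 FPKM (-1.17). The laminin receptor dystroglycan (Dag1) was at 53.1 FPKM in both libraries, and the collagen receptor Ddr1 at 32.6 and 26.2 FPKM.

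Collagen processing genes lay on both sides, with 15 of 26 measured, 1 higher and 1 lower, beside 2.44% and 2.18% of all measured genes, and a median of -0.10, or 0.01 with the TMM factor. Serpinh1, the collagen chaperone HSP47, was at 4.20 and 1.4 FPKM (-1.12), and the prolyl hydroxylase gene P3h1 at 3.15 and 1.57 FPKM (-0.69). P4hb, which serves both as a subunit of prolyl 4-hydroxylase and as a general disulphide isomerase, was at 494 and 1005 FPKM (1.02). The lysyl hydroxylase Plod2 was at 2.53 and 5.17 FPKM (0.81). The lysyl oxidase gene Lox, which crosslinks fibrillar collagen, was at 0.01 and 0.04 FPKM.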

How the data were processed

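Total RNA of 2 libraries was sequenced as single-end 50-base reads, with 59000000 reads a sample as the average stated in the labels' protocols. The deposited values are FPKM per gene, per the file headers. The submitters' processing notes name HISAT, Bowtie2, RSEM and mm9, and the sources used here give no versions, roles or annotation. FPKM depends on the library total, and RSEM divides reads among similar genes by estimation.

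The tables were joined on Entrez number. Log2 ratios used a pseudocount of 1, a minimum of 1 FPKM in at least 1 library and a 2-fold limit, with Python 3.11.15 and pandas 2.3.3. The calculation of the calls, not the genotype difference, was tested on simulated data. The TMM factor (trims of 30% and 5%) was computed over genes at 1 FPKM or more in both libraries. Depth was taken from value steps in 321 genes of 60 to 350 bases, searched between 5000000 and 30000000 reads. There 86.6% (WT) and 89.4% (KO) of low values were whole reads to within 0.1. The depth was chosen to make these shares high. Whole multiples of it, which lie outside that range, would also give whole reads, so the reads per gene may be too low by such a multiple. Reads per gene used the longest coding transcript of GENCODE M21 and are approximate, and a shorter expressed transcript would make them too high.

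The genes described and the lists were chosen with earlier results of these data known. Genes were named when past 2-fold, among the 10 most abundant, highest or lowest in their role group, or part of a known complex. Other chains near 1 FPKM were named where a cell type turns on them. Stat6 and Fosl1, which are on no list, were named as well. Of the pathway lists, genes past 2-fold and the highest and lowest were named, and the others after their values were seen. Protein sequences were not used here, and a gene that this rule selects is counted but not reported by name.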

Additional observations from a re-analysis of the deposited data

How the results depend on the processing

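No paired analysis was possible because each genotype has 1 library, and for the same reason no library could be left out. The count of 0 of these genes higher in KO was the same under all 9 alternatives, which were planned. The count of 2 lower genes stayed at 2 with no minimum level, 5 FPKM in 1 library or 1 FPKM in both. It was 4 with a pseudocount of 0.1 (Col18a1 and Itgb2 added) and 0 with a pseudocount of 5. It was 1, Lama3, with the TMM factor, 0 with the median of all genes set to 0, 9 at 1.5-fold and 0 at 4-fold. The median log2 ratio of -0.36 was -0.49 with a pseudocount of 0.1, -0.20 with 5, -0.22 with the TMM factor, -0.18 with the median set to 0 and -0.13 with no minimum level. Of all measured genes, 295 were higher and 263 lower. Counts were 374 and 604 with a pseudocount of 0.1, 144 and 63 with 5, 402 and 192 with the TMM factor, and 409 and 160 with the median set to 0. They were 224 and 150 at a minimum of 5 FPKM, 237 and 165 at 1 FPKM in both, 689 and 1381 at 1.5-fold, and 51 and 27 at 4-fold. No single gene of the 30 moved by 1.5-fold or more under the 2 pseudocounts and 2 scalings, and 6 changed sign with the median set to 0 (Itga7 and the 5 that turned with the TMM factor). A pseudocount sets how far low genes can pass a limit; the cause of the other changes was not tested.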

Other observations

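Of 23 other ligands of integrins, 11 were measured. In KO 1 was at least 2-fold higher and 1 at least 2-fold lower. The median log2 ratio of the 11 was -0.49, or -0.41 with the TMM factor. Thbs2 and Spp1, whose own ratio is that median, reached 1 FPKM in WT alone and had to read lower. Over all measured genes 2.44% were higher, 2.18% were lower and the median was -0.18. Fbln1, which encodes the matrix glycoprotein fibulin 1, was at 4.82 FPKM in the WT library and 15.96 FPKM in KO (1.54). Thbs1, the matricellular protein thrombospondin 1, was at 17.01 and 6.90 FPKM (-1.19). The adhesion molecule Icam1, a ligand of leukocyte integrins, was at 7.10 and 3.27 FPKM (-0.92), and Npnt (nephronectin) at 2.70 and 1.09 FPKM (-0.82). Tgfb1, whose latent form integrin alpha-V/beta-6 activates, was at 6.51 and 5.25 FPKM (-0.26), and Cdh1 (E-cadherin), the ligand of the lymphocyte integrin chain Itgae, at 318 and 272 FPKM (-0.22). Cyr61 and Ctgf, a pair of related matricellular genes, stood on opposite sides at 3.91 and 1.93 FPKM (-0.74) and at 0.76 and 1.33 FPKM (0.40). Ctgf reached 1 FPKM in KO alone, so it had to read higher.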
